A study of Mus musculus with 12 samples.

Results

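The glycolysis, glycogen and hexosamine enzymes of the heart are described here across 12 mice. A list of 38 gene symbols defined the group, and every non-control probe of the array carrying 1 of these symbols was taken, which gave 94 of 56605 probes. Of these, 79 probes of 37 genes passed the filter on low signal, which asked for a positive, significant signal on 50% or more of the arrays in each group, among 30859 probes of the array that passed. The *Pgm1* probe did not pass. No measured value entered the choice of symbols, although results of these data were known when the list was drawn up.

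All mice were male C57BL6/J, 5 months old, and heart muscle RNA of each mouse was hybridised to its own array, with no pooling. Control mice (C) received neither streptozotocin nor pargyline. According to the paper, mice not given pargyline received vehicle. Control mice with pargyline (C + P) received pargyline at 50 mg/kg per day for 12 weeks. Diabetic mice (D) had received 5 daily doses of 50 mg/kg streptozotocin, which destroys the cells that make insulin, and diabetic mice with pargyline (D + P) received both agents. Pargyline inhibits monoamine oxidase (MAO), the mitochondrial enzyme that breaks down biogenic amines. Each group held 3 mice, and streptozotocin diabetes is a model of insulin lack rather than of insulin resistance.

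Glycolysis splits glucose into pyruvate, with hexokinase and phosphofructokinase as its regulated early steps. The heart takes most of its energy from fatty acids, draws on glucose and lactate as well, and keeps a glycogen store that phosphorylase opens when demand rises. A small share of the fructose 6-phosphate leaves glycolysis for the hexosamine pathway, whose product UDP-GlcNAc is the donor for protein O-GlcNAc modification, and glucose 6-phosphate can enter the pentose phosphate pathway, which yields NADPH. Lack of insulin is known to lower glucose uptake and use in the heart.

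Levels are given as the log2 of the quantile-normalized signal, and changes as differences of group means on that scale with their standard error (SE). Levels of different probes cannot be set against each other, since probes differ in how brightly they hybridise. Each gene is represented by its brightest tested probe, called probe 1, and its other probes by their rank in brightness. Of these 37 probes, 36 were well above background on all 12 arrays, the exception being that of *Aldoc*, at 1 of 12. In bulk heart muscle, fewer cells of a type and less RNA per cell cannot be told apart.

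Probe sequences are shown for the enzymes on which the results turn, because several genes were read by more than 1 probe and the probes did not always move together. Each line holds the first 30 of the 60 bases of a probe, 5′ to 3′, from the array design files, with the mm9 position of the whole probe. The *Pfkfb2* probes and the *Eno3* probe carry the lower signals of diabetic hearts and the *Pygb* probes the higher ones. On both *Pfkp* probes shown the C arrays lay below all others. The probes of *Pfkp* and *Pygb* whose positions run beyond 60 bases cross a gap in the genome. Exon and UTR positions of the probes were not analysed here.
*Pfkfb2* probe 1, chr1:132588947-132589006, - strand: ctctgctgaaagtgaagatgttaatcctta
*Pfkfb2* probe 2, chr1:132586122-132586181, - strand: tatactacagggcttttttcttgtggtata
*Eno3* probe 1, chr11:70475953-70476012, + strand: ctttcacaggaaagacacaggccttcaagc
*Pygb* probe 1, chr2:150656541-150656600, + strand: cctgaaatcctgcacgtagctgagtgagct
*Pygb* probe 2, chr2:150655410-150656136, + strand: caggtggaccgtctataccggaattccaag
*Pfkp* probe 1, chr13:6580589-6580648, - strand: ttttgtaacatagttatttatcagcacttt
*Pfkp* probe 2, chr13:6581718-6583872, - strand: caaactgaaggggtcccagggcacagggaa

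A pair of *Gpi1* probes is shown as an example of 2 near-identical probes. Their starts lie 4 bases apart, and over the 56 bases they share the sequences differ at 1 base, given in capitals.
*Gpi1* probe 1, chr7:34987178-34987237, - strand: tgtcatgttgttctgacctGtatttcacac
*Gpi1* probe 2, chr7:34987174-34987233, - strand: atgttgttctgacctTtatttcacacccca
Probe 1 gave a change of 0.21 ± 0.15 (SE) in D against C and probe 2 one of -0.03. The difference between the 2 probes was not tested. For scale, 19 of the 37 brightest probes had a change in D against C under 0.2 in size.

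The 12 arrays were not equal. Spots well above background numbered 23556 on D replicate 1 and up to 29231 on C replicate 2, of 59305, with 0 saturated. The median spread between repeated spots was outside the accepted range on replicate 1 of all 4 groups and on replicate 3 of D + P. It reached 23.2% on D replicate 1, against 3.89 to 5.68% on the arrays within range. Groups without pargyline shared 1 slide and scan and groups with it another, so slide cannot be told apart from pargyline. Non-diabetic hearts filled 1 row of each slide and diabetic hearts the other, so row cannot be told apart from diabetes. The 7 cardiomyocyte markers tested had mean log2 signals of 16.4 to 16.5 on the C arrays, 16.3 to 16.5 in C + P, 16.0 to 16.5 in D and 16.1 to 16.4 in D + P.

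In the glycolysis, glycogen and hexosamine enzymes, 0 of 79 probes passed the adjusted threshold (0.05 after Benjamini-Hochberg adjustment for all tested probes) in any of the 6 comparisons. The array as a whole had few calls too. Diabetes was called in 0.00648% of all tested probes without pargyline (D against C), in 0.0454% with it (D + P against C + P) and in 0.107% averaged over pargyline. Pargyline was called in 0.0324% without diabetes (C + P against C) and in 0% with it (D + P against D). The interaction, the change with diabetes under pargyline minus that without it, was called in 0.00648%. An unadjusted p under 0.05 is therefore used below only to order the enzymes, and nothing below is a call. For diabetes averaged over pargyline, 8 of 79 probes had such a p (10.1%), against 11.4% of all tested probes. The median change of the 37 brightest probes was -0.10, against 0.00 over 20893 gene names. Over the 79 tested probes the median ran from -0.12 to -0.0085 across the settings tried, being nearest to 0 with array weights and at -0.0094 with normexp.

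**Figure D1:**
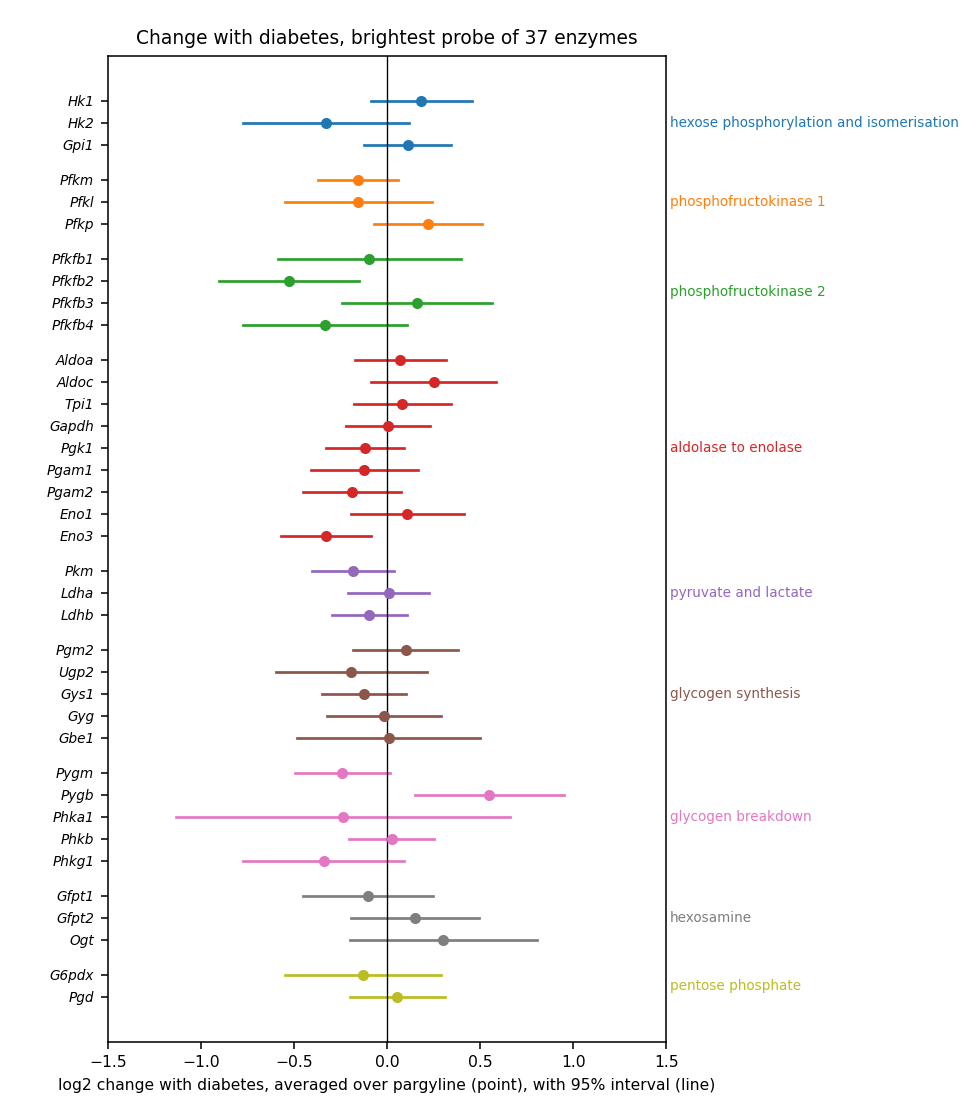
Change with diabetes averaged over pargyline, on the log2 scale, for the brightest probe of 37 enzymes grouped by role; points are the fitted changes and lines their 95% intervals. Changes ran from -0.52 (*Pfkfb2*) to 0.55 (*Pygb*), and the intervals of *Pfkfb2*, *Eno3* and *Pygb* alone left out 0.

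The phosphofructokinase 2 enzymes make and remove fructose 2,6-bisphosphate, the allosteric activator of phosphofructokinase 1. *Pfkfb2*, the cardiac isoform, had lower mean signal in diabetic than in non-diabetic hearts, though without pargyline the size of the difference came mostly from 1 array. Its log2 signal was 9.97, 9.93 and 9.97 in C, 10.17, 10.29 and 10.20 in C + P, 8.89, 9.92 and 9.78 in D, and 9.55, 9.45 and 9.80 in D + P. No diabetic array reached a non-diabetic one of the same slide, though D replicate 2 came very near the lowest C array and D replicate 1 lay far below the others. The change was -0.52 ± 0.17 (SE), 95% interval -0.90 to -0.15, unadjusted p = 0.011 and adjusted p = 0.300 in limma. Without D replicate 1 it was -0.36, and the change in D against C alone, -0.43 with that array, was -0.11 without it. Leaving out each array in turn gave changes of -0.62 to -0.36 and unadjusted p of 0.0039 to 0.027.

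A second *Pfkfb2* probe, at the sequence shown above, read 8.90, 8.85 and 8.77 in C, 9.32, 9.01 and 9.64 in C + P, 8.45, 8.60 and 7.69 in D, and 9.13, 8.68 and 8.94 in D + P. Here the low array was D replicate 3, and D + P overlapped C + P. Its change was -0.50 ± 0.18 (SE), with an unadjusted p of 0.018. The third probe was at background (well above it on 0 of 12 arrays), and its change of -0.32 is not read further. Both probes with signal thus gave averaged changes of like size, the low D array being a different one in each, but their group patterns differed. On the brightest probe every D + P array lay below every C array. On the second probe the D + P arrays spanned the range of C. On both probes every C + P array lay above every C array, and this higher C + P signal enters both averaged changes.

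*Pfkfb4*, an isoform studied mainly in testis and tumours, read 7.45, 7.29 and 7.19 in C, 8.0, 7.52 and 7.32 in C + P, 6.34, 7.37 and 7.14 in D, and 7.51, 6.96 and 7.46 in D + P. Its change of -0.33 ± 0.20 (SE) was -0.18 without D replicate 1, and that in D + P against C + P, which uses no D array, was -0.30. C + P replicate 1, also an array with a spread outside the accepted range, had the highest *Pfkfb4* signal and enters that value. *Pfkfb1*, the isoform of liver and skeletal muscle, stood at 10.28, 10.44 and 10.13 in C and 9.61, 9.73 and 9.59 in C + P. The diabetic arrays were scattered, at 10.33, 9.87 and 9.17 in D and 10.45, 9.35 and 10.04 in D + P. *Pfkfb3*, the inducible isoform, had means over the 3 arrays of 8.88 (C), 8.52 (C + P), 8.86 (D) and 8.86 (D + P).

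Among the phosphofructokinase 1 isoforms, which commit fructose 6-phosphate to glycolysis, the muscle isoform *Pfkm* differed little between arrays. It read 14.62, 14.60 and 14.62 in C, 14.60, 14.51 and 14.44 in C + P, 14.29, 14.53 and 14.49 in D, and 14.52, 14.27 and 14.36 in D + P. Every D array lay below every C array by a narrow margin, and the D + P and C + P arrays overlapped. The change with diabetes was -0.16 ± 0.10 (SE), unadjusted p = 0.13, and -0.081 with 75th percentile scaling or -0.051 with the normexp background correction. With 75th percentile scaling the change in D against C was 0.03, against -0.18 here. *Pfkl*, the liver isoform, had a change of -0.15 ± 0.18 (SE).

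*Pfkp*, the platelet isoform, had lower signal in C than in the other groups on its 2 brightest probes. The log2 signal of probe 1 was 9.41, 9.71 and 9.73 in C, 10.54, 9.99 and 9.96 in C + P, 10.01, 10.23 and 10.32 in D, and 10.06, 10.07 and 9.98 in D + P. All C arrays lay below all 9 other arrays. The change was 0.57 ± 0.19 (SE) in D against C (unadjusted p = 0.011, adjusted p = 0.35) and -0.13 ± 0.19 (SE) in D + P against C + P. Probe 2 read 8.11, 8.29 and 8.20 in C and 8.46 to 9.06 on the other arrays, again with no overlap, and its changes were 0.66 ± 0.17 (SE) and 0.14 ± 0.17 (SE). Averaged over pargyline, the changes were 0.22 ± 0.13 (SE) for probe 1 and 0.40 ± 0.12 (SE) for probe 2, with unadjusted p of 0.12 and 0.0066. Probe 3 had a change of 0.24 in D against C, which was -0.24 without D replicate 1.

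**Figure D2:**
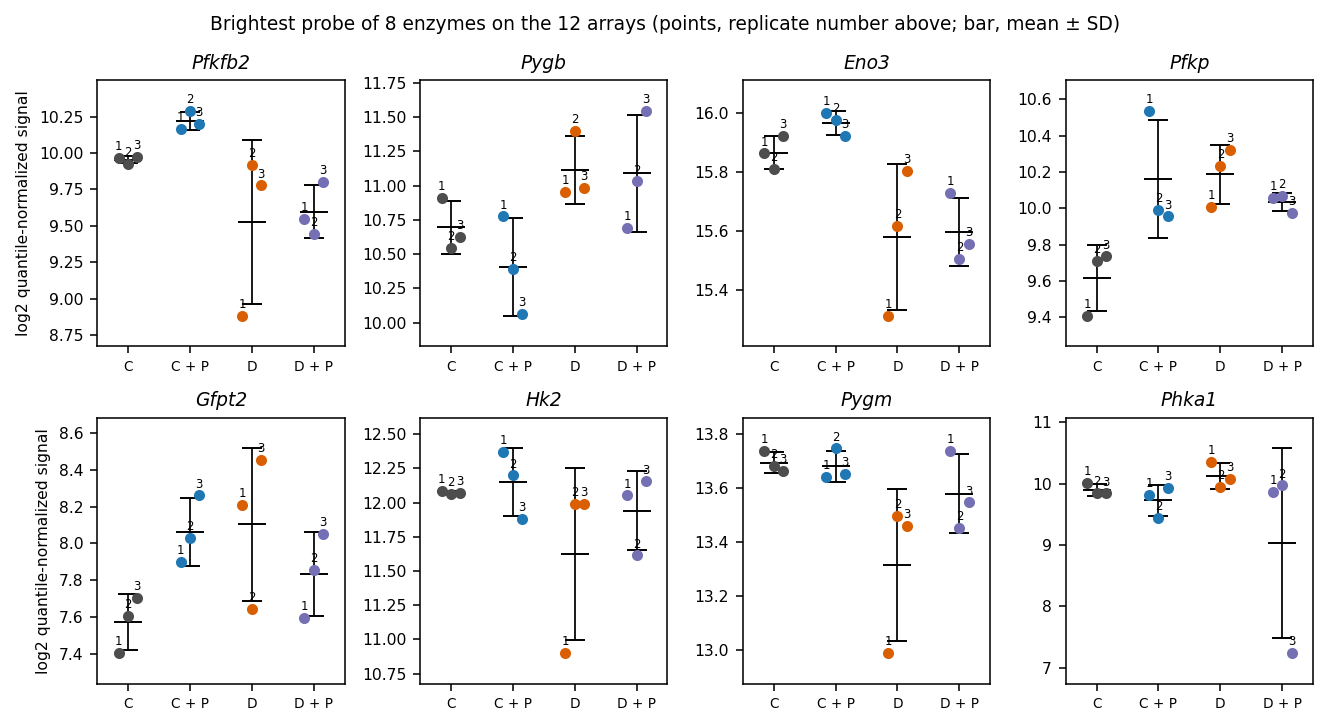
Log2 quantile-normalized signal of the brightest probe of 8 enzymes on each of the 12 arrays (points, with the replicate number above), by group, with the group mean ± SD (bars, n = 3); each panel has its own axis, which does not start at 0. *Pfkfb2* and *Eno3* lay lower in D and D + P, *Pygb* higher on most arrays, *Pfkp* lowest in C, and single arrays (D replicate 1 in *Hk2* and *Pygm*, D + P replicate 3 in *Phka1*) stood apart from their groups.

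Hexokinase traps glucose in the cell as glucose 6-phosphate. *Hk2*, the insulin-responsive isoform of muscle and heart, read 12.09, 12.07 and 12.07 in C, 12.37, 12.20 and 11.88 in C + P, 10.90, 11.99 and 11.99 in D, and 12.05, 11.61 and 12.15 in D + P. D replicate 1 lay more than 1 log2 unit below its group, and D replicates 2 and 3 lay just under the C arrays. The change with diabetes was -0.33 ± 0.20 (SE), unadjusted p = 0.13, and -0.15 without D replicate 1. *Hk1*, the constitutive isoform, had a change of 0.18 ± 0.12 (SE), with means over the 3 arrays of 14.60 (C), 14.66 (C + P), 14.80 (D) and 14.82 (D + P). *Gpi1*, which isomerises glucose 6-phosphate, had one of 0.11 ± 0.11 (SE).

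From aldolase to enolase the pathway turns fructose 1,6-bisphosphate into phosphoenolpyruvate. *Eno3*, the muscle isoform of enolase, had an unadjusted p under 0.05 for diabetes averaged over pargyline, as 1 of these 9 enzymes by their brightest probes, which is near the 11.4% of all tested probes. It read 15.86, 15.81 and 15.92 in C, 16.00, 15.97 and 15.92 in C + P, 15.31, 15.62 and 15.80 in D, and 15.73, 15.51 and 15.56 in D + P. Every diabetic array lay below every non-diabetic array, with D replicate 3 and C replicate 2 nearly touching. The change was -0.33 ± 0.11 (SE), 95% interval -0.57 to -0.09, unadjusted p = 0.012 and adjusted p = 0.31. With the normexp background correction it was -0.19, with an unadjusted p of 0.19. *Eno1*, the ubiquitous isoform, had a change of 0.11 ± 0.14 (SE).

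The muscle phosphoglycerate mutase *Pgam2* read 15.95, 15.77 and 15.85 in C, 16.22, 16.02 and 16.06 in C + P, 15.82, 15.68 and 15.77 in D, and 16.14, 15.55 and 15.77 in D + P. The C + P arrays lay above the C arrays, while diabetic and non-diabetic arrays overlapped in both pairs. Its change with diabetes was -0.19 ± 0.12 (SE), and -0.12 without D + P replicate 2. The brain isoform of aldolase, *Aldoc*, was at background on nearly every array, with 4.91, 4.66 and 4.83 in C, 4.63, 4.66 and 4.49 in C + P, 4.90, 5.01 and 5.56 in D, and 5.00, 4.38 and 4.83 in D + P. It was well above background on 1 of 3 D arrays and on 0 arrays of the other groups, so no fold is given.

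*Pgk1*, phosphoglycerate kinase, was nearly flat in C, C + P and D and lower in D + P. Its arrays read 15.05, 15.04 and 14.96 in C, 15.11, 15.06 and 14.98 in C + P, 15.23, 14.97 and 14.98 in D, and 14.84, 14.77 and 14.71 in D + P. All D + P arrays lay below the other 9. The change in D + P against D was -0.29 ± 0.13 (SE), unadjusted p = 0.054, and -0.45 with 75th percentile scaling. Over the settings tried it ran from -0.66 to -0.20. A second *Pgk1* probe lies on the opposite strand of chromosome X, so that it would read an antisense transcript. It is still 1 of the 79 probes counted, with an unadjusted p above 0.05 in every comparison, and is 1 of the 9 probes that did not overlap in D + P against D.

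The other enzymes of this stretch had small changes. *Aldoa*, the muscle aldolase, had means over the 3 arrays of 16.72 (C), 16.95 (C + P), 16.92 (D) and 16.90 (D + P). Changes with diabetes were 0.07 for *Aldoa*, 0.08 for *Tpi1* (triose phosphate isomerase), 0.01 for *Gapdh* (glyceraldehyde 3-phosphate dehydrogenase) and -0.12 for *Pgam1*, with SE of 0.10 to 0.13. *Gapdh*, a usual reference gene, was read by 7 probes that all passed the filter, with changes of -0.26 to 0.05 and unadjusted p of 0.28 to 0.96. The 95% interval of its brightest probe ran from -0.22 to 0.23.

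**Figure D3:**
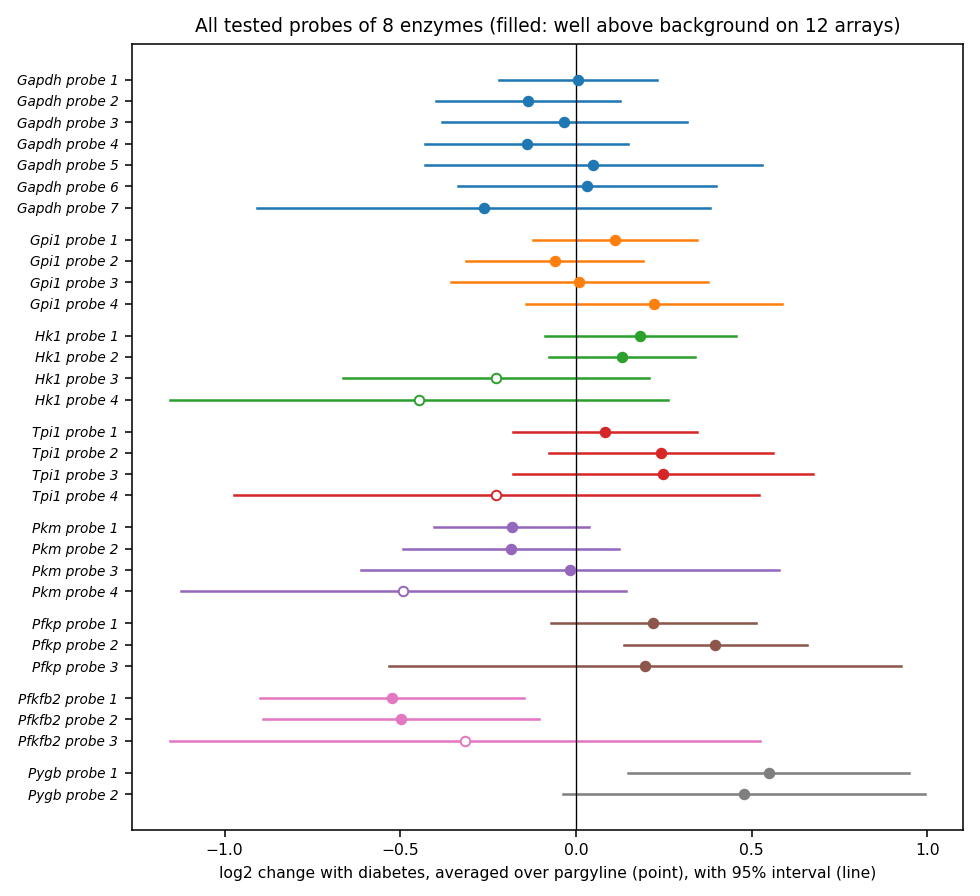
Change with diabetes averaged over pargyline (points, log2 scale) with 95% intervals (lines) for all tested probes of 8 enzymes; filled points were well above background on all 12 arrays. The 7 *Gapdh* probes ran from -0.26 to 0.05, the *Pfkp* probes all lay above 0, and dim probes had the widest intervals.

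Pyruvate kinase makes pyruvate, and lactate dehydrogenase exchanges it with lactate. *Pkm*, pyruvate kinase of muscle, read 15.25, 15.14 and 15.22 in C, 14.88, 15.13 and 15.18 in C + P, 14.84, 15.07 and 15.07 in D, and 14.98, 14.85 and 14.92 in D + P. The D arrays lay below the C arrays, whereas C + P replicate 1 lay within the range of D + P. Its change was -0.18 ± 0.10 (SE), unadjusted p = 0.096, and all 4 tested *Pkm* probes had a change below 0, at -0.49 to -0.02. With the normexp background correction the change of probe 1 was 0.02.

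*Ldhb*, the heart isoform of lactate dehydrogenase, read 16.31, 16.21 and 16.24 in C, 16.06, 16.06 and 15.95 in C + P, 16.09, 16.24 and 16.08 in D, and 15.89, 15.91 and 16.05 in D + P. It was lower with pargyline in both pairs of groups with no overlap, by changes of -0.23 ± 0.13 (SE) in C + P against C and -0.18 ± 0.13 (SE) in D + P against D. With 75th percentile scaling the change in C + P against C was -0.028, and with the normexp background correction -0.021. A second, dimmer *Ldhb* probe had a change of 0.23 ± 0.35 (SE) in C + P against C, of the other sign. *Ldha*, the isoform of fast muscle, had a change with diabetes of 0.01 ± 0.10 (SE), 95% interval -0.21 to 0.23.

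Glycogen breakdown starts with glycogen phosphorylase, which phosphorylase kinase switches on. *Pygb*, the brain isoform of the phosphorylase, which the heart also expresses, had the largest change above 0 among the 37 brightest probes. It read 10.91, 10.55 and 10.63 in C, 10.78, 10.39 and 10.06 in C + P, 10.96, 11.40 and 10.98 in D, and 10.69, 11.03 and 11.55 in D + P. All D arrays lay above all C arrays, the nearest pair being C replicate 1 and D replicate 1, whereas D + P replicate 1 lay within the range of C + P. The change was 0.55 ± 0.18 (SE), 95% interval 0.15 to 0.95, unadjusted p = 0.012 and adjusted p = 0.31. Leaving out each array in turn gave changes of 0.43 to 0.65, with unadjusted p of 0.0045 to 0.031.

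The second *Pygb* probe, whose sequence is given above, read 9.07, 8.59 and 8.72 in C, 8.89, 8.32 and 8.17 in C + P, 9.20, 9.58 and 9.14 in D, and 8.21, 8.91 and 9.61 in D + P. It ordered the arrays much like the first, with D above C on every array and D + P overlapping C + P. Its change was 0.48 ± 0.23 (SE), unadjusted p = 0.065, and 0.31 without D + P replicate 3.

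*Pygm*, the muscle phosphorylase, ran the other way. It read 13.74, 13.68 and 13.66 in C, 13.64, 13.75 and 13.65 in C + P, 12.99, 13.50 and 13.46 in D, and 13.74, 13.45 and 13.55 in D + P. D lay below C on every array and D replicate 1 was the lowest, while D + P overlapped C + P. The change was -0.38 ± 0.16 (SE) in D against C (unadjusted p = 0.042, adjusted p = 0.45) and -0.24 ± 0.12 (SE) averaged over pargyline. Without D replicate 1 these were -0.22 and -0.16, and with 75th percentile scaling -0.18 and -0.16. A second *Pygm* probe had an averaged change of 0.01 ± 0.21 (SE).

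*Phkg1*, the catalytic subunit of phosphorylase kinase in muscle, read 9.28, 8.31 and 8.32 in C, 8.35, 8.46 and 8.49 in C + P, 8.36, 8.44 and 7.98 in D, and 8.39, 7.74 and 8.26 in D + P. C replicate 1 stood apart above all other arrays. The change of -0.34 ± 0.19 (SE) was -0.18 without it. *Phkb*, the regulatory beta subunit, had a change of 0.02 ± 0.10 (SE).

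*Phka1*, the muscle alpha subunit, gave different answers from its 2 probes, which lie at different places of chromosome X and are shown for that reason.
*Phka1* probe 1, chrX:99710704-99710763, - strand: ttctatatctgtccacaatgcctactgtct
*Phka1* probe 2, chrX:99738737-99738796, - strand: aagcagatggtatttaaaagaaatattttt
Probe 1 read 10.01, 9.84 and 9.84 in C, 9.81, 9.44 and 9.93 in C + P, 10.35, 9.94 and 10.08 in D, and 9.87, 9.97 and 7.24 in D + P. D + P replicate 3 lay far below the other 11 arrays, and the change in D + P against D of -1.10 ± 0.57 (SE) was -0.20 without it. Probe 2 read 5.84, 5.50 and 5.73 in C, 5.55, 6.03 and 6.22 in C + P, 3.36, 4.77 and 4.95 in D, and 5.78, 5.27 and 5.00 in D + P. It was not well above background on any D array, so D has only an upper bound there and C is given as at least 1.23-fold higher than D, with an adjusted p of 0.32 in the fit. Of the whole 60 bases, 35% were G or C in probe 1 and 21.7% in probe 2.

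Glycogen synthesis runs from glucose 6-phosphate through phosphoglucomutase, UDP-glucose pyrophosphorylase, glycogenin, glycogen synthase and the branching enzyme. The 5 genes tested here had averaged changes of -0.19 (*Ugp2*) to 0.10 (*Pgm2*), and 0 of them had an unadjusted p under 0.05 in any comparison, where 4.43 to 13.3% of all tested probes had such a p, so that nothing is read from a count of 0 among 5. *Gys1*, the muscle glycogen synthase, had means over the 3 arrays of 11.06 (C), 11.21 (C + P), 10.99 (D) and 11.04 (D + P), and a change of -0.12 ± 0.10 (SE). *Gbe1*, the branching enzyme, had a change of 0.01 ± 0.22 (SE) and *Gyg*, glycogenin, one of -0.02 ± 0.14 (SE). The probe the array names *Pgm2* matches the transcript that RefSeq now names *Pgm1*, and the one it names *Pgm1* matches RefSeq *Pgm2*.

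In the hexosamine pathway, *Gfpt1* and *Gfpt2* encode the rate-limiting glutamine-fructose-6-phosphate transaminase, and *Ogt* the transferase that attaches O-GlcNAc. *Gfpt2* read 7.41, 7.61 and 7.70 in C, 7.90, 8.03 and 8.26 in C + P, 8.21, 7.65 and 8.45 in D, and 7.60, 7.86 and 8.05 in D + P. C + P lay above C on every array, D overlapped C only at D replicate 2, and D + P overlapped all other groups. The change was 0.53 ± 0.22 (SE) in D against C (unadjusted p = 0.036, adjusted p = 0.44) and -0.23 ± 0.22 (SE) in D + P against C + P.

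*Gfpt1* had a change with diabetes of -0.10 ± 0.16 (SE). *Ogt* had means over the 3 arrays of 8.15 (C), 7.96 (C + P), 8.09 (D) and 8.63 (D + P), and a change of 0.67 ± 0.32 (SE) in D + P against C + P, unadjusted p = 0.062. Without D + P replicate 3, the highest *Ogt* array at 9.33, it was 0.32. A second *Ogt* probe had a change of -0.19 ± 0.15 (SE) in that comparison, of the other sign. The oxidative enzymes of the pentose phosphate pathway had averaged changes of -0.13 ± 0.19 (SE) for *G6pdx*, glucose 6-phosphate dehydrogenase, and 0.06 ± 0.12 (SE) for *Pgd*, 6-phosphogluconate dehydrogenase.

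**Figure D4:**
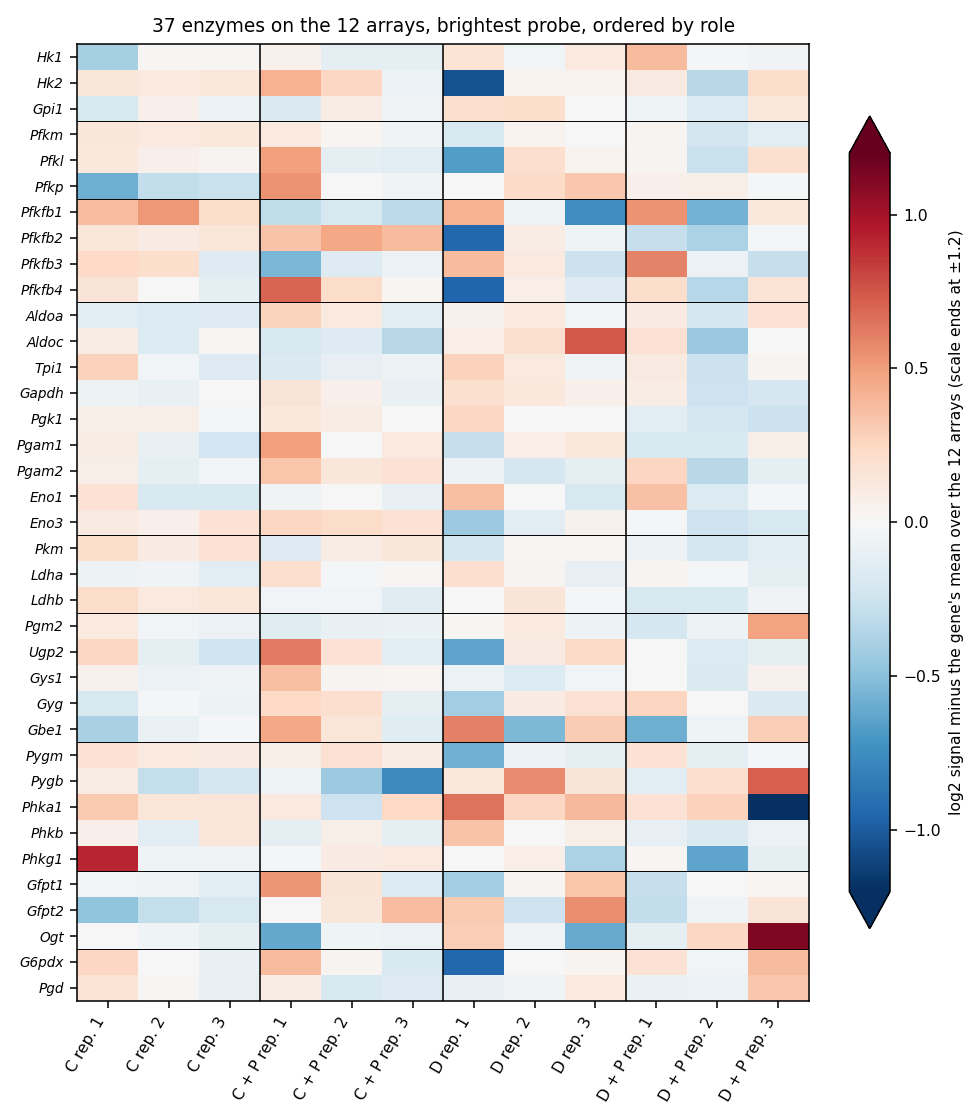
Log2 signal of the brightest probe of 37 enzymes (rows, ordered by role) on the 12 arrays (columns), as the difference from the gene's mean over all arrays; the colour scale ends at ±1.2. D replicate 1 held the lowest value in 23 of the 79 tested probes, and *Phka1* on D + P replicate 3 lies beyond the scale.

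The map of the 37 enzymes over the arrays shows that single arrays carried much of the spread. D replicate 1 was the lowest of the 12 arrays in 23 of 79 enzyme probes (29.1%, against 18.2% of all tested probes) and the highest in 13 (16.5%, against 18.6%). C + P replicate 1 was the highest in 20 (25.3%, against 15.6%). D + P replicate 2 was the lowest in 12 (15.2%, against 6.7%). The median SD of the 37 brightest probes was 0.0979 in C and 0.149 in C + P (n = 3 arrays each). In the diabetic groups it was higher, at 0.246 in D and 0.208 in D + P. Whether array quality had a part in these values was not tested.

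The question of whether diabetes acted on these enzymes alike without and with pargyline was put to each pair of groups. In D against C, 7 of 79 probes had an unadjusted p under 0.05 (8.86%), against 10.8% of all tested probes, 3 being higher and 4 lower, where the shares over all probes were 5.13% and 5.66%. In D + P against C + P there were 6 (7.59%), against 7.46%, 1 being higher and 5 lower, where the shares over all probes were 3.67% and 3.79%. Groups did not overlap for 17 probes (21.5%) without pargyline, against 22.2% of all tested probes, and for 12 (15.2%) with it, against 13.9%. With 3 arrays a group, an exact two-sided permutation test of 1 probe cannot give a p below 0.1. Of the 6 probes of D + P against C + P, 3 were the fourth of *Hk1*, the third of *Gfpt1* and the second of *Pgd*, which were well above background on at most 1 of 12 arrays and are not read further. A single probe each of *Eno3* and *Pfkfb2* lay apart in the same direction in both comparisons (2 probes, 2.53%, against 2.5%), and 0 lay apart in opposite directions, against 0.836%.

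**Figure D5:**
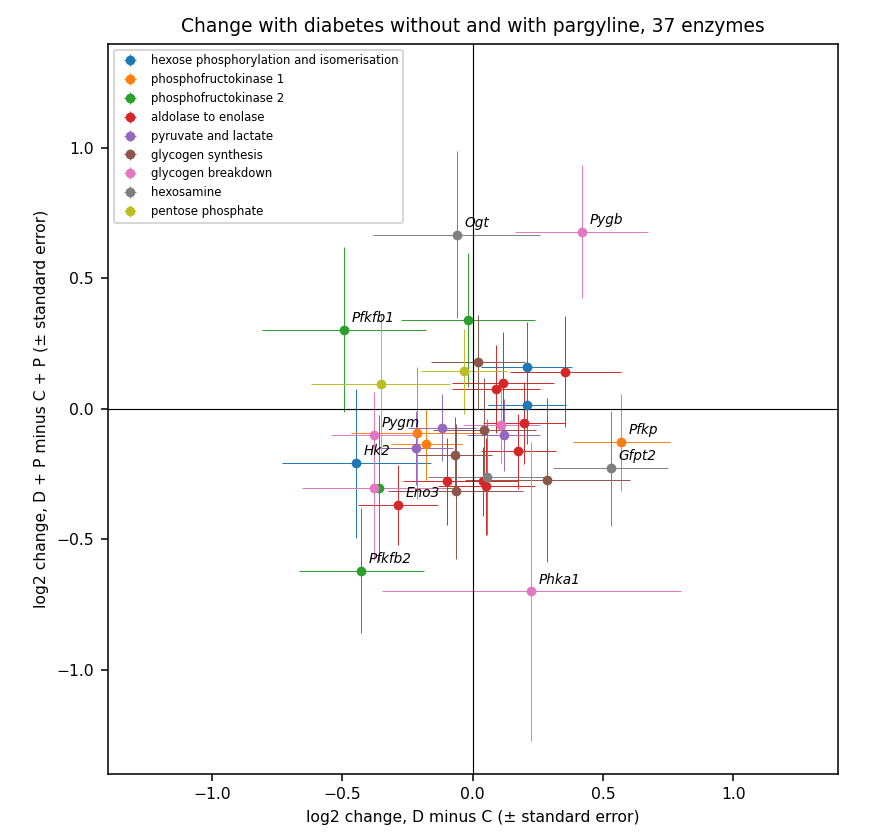
Change with diabetes without pargyline (D minus C, horizontal) and with it (D + P minus C + P, vertical), log2 scale, for the brightest probe of 37 enzymes coloured by role; lines are ± 1 SE. *Pfkfb2* and *Eno3* lie below 0 on both axes and *Pygb* above 0 on both, while *Pfkp* and *Gfpt2* lie above 0 without pargyline and below 0 with it.

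The interaction tests that difference itself. It had an unadjusted p under 0.05 in 3 of 79 probes (3.8%), against 7.03% of all tested probes. For *Pfkp* it was -0.70 ± 0.26 (SE), 95% interval -1.28 to -0.12, unadjusted p = 0.023 and adjusted p = 0.68. Over the settings tried it ran from -0.82 to -0.44. *Pfkp* probe 2 gave -0.52 ± 0.24 (SE) and probe 3 gave -0.09 ± 0.66 (SE), both probes being well above background on all 12 arrays. For *Gfpt2* it was -0.76 ± 0.31 (SE), 95% interval -1.45 to -0.07, unadjusted p = 0.034 and adjusted p = 0.70. In both genes the C group was the lowest of the 4 groups. The 4 adipocyte markers tested, 2 of them well above background on 0 arrays, had median changes with diabetes of 0.49 without pargyline and -0.64 with it. Against that median, 1 of the 4 was higher with it at an unadjusted p under 0.05 and 0 were lower, where 7.46% of all tested probes had such a p. In the interaction 0 of the 4 had such a p, against 7.03%, and nothing is read from these counts. The 2 atrial cardiomyocyte markers tested had median changes of 0.34 and -0.70. The part of both marker sets in the values of *Pfkp* and *Gfpt2* was not tested. The remaining probe was the second of *Pfkl*, at 1.35 ± 0.47 (SE), unadjusted p = 0.016, while the first *Pfkl* probe gave 0.12 ± 0.36 (SE). Next in order were *Pfkfb1* at 0.80 ± 0.45 (SE) and *Pgk1* at -0.32 ± 0.19 (SE), with unadjusted p of 0.10 and 0.12. Without D replicate 3 the *Pfkfb1* interaction was 0.49, and with 75th percentile scaling the *Pgk1* interaction was -0.57.

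The effect of pargyline in non-diabetic hearts was asked in C + P against C. Of 79 probes, 5 had an unadjusted p under 0.05 (6.33%), against 4.43% of all tested probes, 4 being higher and 1 lower, where the shares over all probes were 1.95% and 2.48%, and 18 did not overlap (22.8%), against 15.3%. *Pfkp* had a change of 0.54 ± 0.19 (SE), unadjusted p = 0.014, and *Gfpt2* one of 0.49 ± 0.22 (SE), unadjusted p = 0.049, both with an adjusted p of 1.00. Without C + P replicate 1 the *Pfkp* change was 0.36, and over the settings tried it ran from 0.25 to 0.77. The other probes were the second of *Pfkp*, at 0.48, the fourth of *Hk1*, at background on all arrays, and the second of *Pygm*, at -0.77 ± 0.30 (SE), unadjusted p = 0.027, whose first probe gave -0.01 ± 0.16 (SE). *Pfkfb1* had a change of -0.64 ± 0.32 (SE), unadjusted p = 0.068, and its second probe one of -0.81 ± 0.38 (SE). Immediate early genes, which respond within minutes to handling and stimulation, had mean log2 signals of 10.17 to 10.68 on the C + P arrays against 7.46 to 8.03 on the other 9. The same C + P arrays enter D + P against C + P, the averaged change and the interaction. The median changes of the immediate early genes there were -2.41, -1.48 and -2.07. The part of that difference in the enzyme values of any of these comparisons was not tested.

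In diabetic hearts, D + P against D, 5 of 79 probes had an unadjusted p under 0.05, all higher with pargyline (6.33%), against 13.3% of all tested probes in either direction and 6.85% higher. Groups did not overlap for 9 (11.4%), against 17% of all tested probes. These 5 were dimmer probes of *Pfkl*, *Pfkfb2*, *Tpi1*, *Eno1* and *Phka1*, and the brightest probe of each of these genes had an unadjusted p above 0.05. The *Tpi1* probe was well above background on 0 arrays of both groups and the *Phka1* probe on 0 of 3 D arrays. *Pfkfb2* probe 2 had a change of 0.67 ± 0.25 (SE) and probe 1 one of 0.07 ± 0.24 (SE), which was -0.25 without D replicate 1. Without D replicate 3 the change of *Pfkfb2* probe 2 was 0.40, that of the *Eno1* probe 0.38, against 0.82 with it, and that of the *Pfkl* probe 0.52, against 0.86. The change of the *Phka1* probe was 0.49 without D replicate 1, against 0.99 with it. *G6pdx* read 8.34, 8.09 and 8.0 in C, 8.47, 8.13 and 7.90 in C + P, 7.15, 8.09 and 8.13 in D and 8.26, 8.05 and 8.47 in D + P. Its change of 0.47 ± 0.27 (SE) was 0.16 without D replicate 1.

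Of the 17 enzymes with several probes well above background on all 12 arrays, 10 had the same sign of the averaged change in all of those probes, and over all tested probes 9 of 23 enzymes with several did. Most of the 17 had 2 such probes, which can often share a sign by chance, and nothing is read from these counts. Other genes of the same pathways were counted in the same way. Of 13 further glycolysis and gluconeogenesis genes tested, 1 was higher and 4 were lower at an unadjusted p under 0.05 with diabetes averaged over pargyline, where 11.4% of all tested probes had such a p, and 0 passed the adjusted threshold. Values are given for 3 of these. *Fbp2*, the muscle fructose bisphosphatase, had a mean of 8.41 in C and 8.28 in C + P, against 9.11 in D and 9.19 in D + P, and a change of 0.81 ± 0.14 (SE), adjusted p = 0.076. *Hk3*, a hexokinase of blood cells, had a change of -0.50 ± 0.18 (SE), and *G6pc3*, the ubiquitous glucose 6-phosphatase, one of -0.30 ± 0.11 (SE), with unadjusted p of 0.017 for each.

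Of 17 further glycogen genes and 9 hexosamine genes, 0 had an unadjusted p under 0.05 in either direction for diabetes averaged over pargyline, against the same 11.4% of all tested probes. Of 10 pentose phosphate and polyol genes, 1 was higher (*Khk*, ketohexokinase, at 0.27 ± 0.12 (SE)) and 0 were lower, which is near that share. Macrophage and leukocyte markers had a median change of -0.45 with diabetes, 3 of 6 of them lower at an unadjusted p under 0.05, and mean log2 signals of 11.3 to 11.7 on non-diabetic and 10.9 to 11.2 on diabetic arrays. Cardiomyocyte markers had a median change of -0.07, with 1 of 7 lower (*Ryr2*, at -0.99). Endothelial markers had a median change of 0.13, with 0 of 6 past that p, and fibroblast markers one of 0.06, with 2 of 6 higher. Whether the makeup of the tissue had a part in the enzyme values was not tested.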

How the data were processed

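Heart muscle RNA (200 ng per mouse, Cy3) from 12 mice was read on 1-colour Agilent mouse arrays, 1 per mouse. The authors extracted the deposited intensity values (processed signal, background-subtracted by the software) with Feature Extraction, version 12.0.0.7 in the file headers, which place probes on mm9. The deposited series table (47757 probes) holds the authors' quantile-normalized values on a linear scale and was used as an alternative after a log2 transformation.

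For this report, log2 of the deposited processed signal was quantile normalized after outlier spots were set to missing, and repeated spots were averaged. Tested were the 30859 of 56605 probes with positive, significant signal on 50% or more of the arrays in each group. Signal that was not positive made up 2.03% of the values of tested probes. limma 3.58.1 (R 4.3.3) fitted 1 mean per group over 12 arrays (residual df 8), two-sided, with Benjamini-Hochberg adjustment over all tested probes and a threshold of 0.05. For arrays, their number limits the precision.

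The enzymes, gene lists and tests were chosen with earlier results of these data known. Per-array values are given for the 12 enzymes with the smallest p for diabetes averaged over pargyline and the 4 with the smallest p in each of the interaction, C + P against C and D + P against D, by their brightest probe. Among other probes, some whose sign differed or that passed a threshold are given, several of them by their change only. RefSeq accessions matched 67 of 94 probes. The alternatives were the background correction (normexp, offset 50), the 75th percentile scaling, the authors' table, missing values for signal that was not significant, 2 other filters, array weights, slide, slide column and replicate number as blocks, the methods' t-test, the mean over probes, leaving out each array and, chosen after seeing the data, leaving out the 5 arrays with a spot CV out of range. Replicates are separate mice. Some genes of the further pathway lists are not reported here.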

Additional observations from a re-analysis of the deposited data

How the results depend on the processing

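Across 26 settings, 24 changes of named enzymes kept their direction and side of the adjusted threshold in 575 of 578 values. The 3 that turned were *G6pdx* in D + P against D, at -0.051 without the 5 arrays with a spot CV out of range, which leaves 1 array in D + P, *Ldhb* in C + P against C, at 0.00074 as the mean over its probes, and *Pkm* averaged over pargyline, at 0.017 with normexp. The count of enzyme probes past the adjusted threshold was 0 in every comparison and setting run except 1 probe of *Phka1* (probe 2, at background on all D arrays) for the averaged change with array weights, which also gave 397 calls over all probes, against 33 in the reported fit and 1 to 116 in the other settings. Over all probes and settings the adjusted calls ran from 0 to 106 (D against C), 1 to 69 (D + P against C + P), 1 to 397 (averaged), 0 to 184 (C + P against C), 0 to 13 (D + P against D) and 0 to 6 (interaction).

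The counts of enzyme probes with an unadjusted p under 0.05 moved more, and so did the shares over all probes, given in brackets. In C + P against C they were 8 with normexp (3.77%), 12 with array weights (14.1%) and 8 with the methods' t-test (7.69%). In D + P against C + P they were 10 with array weights (11.1%) and 10 without the 5 arrays (9.86%). In D + P against D they were 9 of 94 with all probes tested (9.49%), 2 with the slide column as block (10.9%) and 3 with the methods' t-test (8.34%). In D against C they were 12 with array weights (18.9%), 4 with the methods' t-test (11.4%) and 11 without the 5 arrays (18%). For the averaged change they were 16 with array weights (18.7%) and 15 without the 5 arrays (17%). For the interaction they were 7 with the 75th percentile (7.55%), 5 of 94 with all probes tested (5.25%) and 7 with array weights (10.9%). Those 5 arrays were left out after seeing the data, and the 1 array left in D + P is then assumed to vary like the other groups.

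Leaving out each array in turn gave 0 adjusted calls throughout and these unadjusted counts, with the range of the share over all probes. They were 1 to 9 in C + P against C (2.95 to 5.94%, 1 without C replicate 1 or C + P replicate 1, 9 without D replicate 3) and 0 to 9 in D + P against C + P (5.97 to 9.79%, 0 without C + P replicate 2, 9 without D replicate 1 or D + P replicate 1). They were 3 to 7 in D + P against D (10.5 to 16.5%, 3 without D replicate 3) and 3 to 10 in D against C (6.18 to 13.2%, 3 without C replicate 2, 10 without D replicate 2). They were 6 to 13 averaged (7.92 to 13.3%, 13 without C + P replicate 1) and 1 to 7 in the interaction (4.59 to 11.1%, 1 without C replicate 1 and 7 without D replicate 1). The cause of these shifts was not tested. Arrays with the same replicate number correlated at -0.204 to 0.20 in their deviations from the group means and were not treated as pairs. 5 of 12 arrays correlated best with their own number. With the replicate number as a block the unadjusted counts for diabetes were 5 without pargyline (10.3% of all tested probes), 5 with it (7.16%) and 9 averaged (11%). Those for pargyline were 6 without diabetes (4.48%) and 6 with it (12.8%), and that for the interaction was 4 (6.85%). Adjusted calls of enzyme probes stayed at 0. The slide as a block could not be run for comparisons between slides, nor the t-test for the averaged change and the interaction. Dim probes limit *Aldoc*, *Phka1* probe 2 and *Pgm1*.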
